A study of Xenopus tropicalis with 15 samples.

Results

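Peripheral blood cells of the frog Xenopus tropicalis kept for 1.5 h in medium with erythropoietin (EPO) were compared with cells of the same kind harvested before any culture. The comparison takes 6 of the 15 libraries of the series, 3 of the EPO culture and 3 of fresh cells, and covers every gene of the count table: 26531 genes, of which 8939 had enough counts to be tested. All cells were total peripheral blood cells of wild-type animals, drawn from the heart with EDTA. The EPO group spent 1.5 h in IMDM, diluted and supplemented with 10% fetal calf serum, to which 1 ng/mL of EPO was added, a recombinant X. tropicalis protein produced in E. coli. The control group spent the same time in this medium without EPO, and the fresh group was not cultured. The difference between EPO culture and fresh cells therefore sums the effect of culture and that of EPO, and the control culture is given beside it. The labels number 3 biological replicates per group without naming the animals, so p-values cover the spread among these libraries, which may in part be technical.

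In vertebrates EPO is the main hormone of red cell formation. It binds its receptor, which activates the Janus kinase JAK2 and, through it, the transcription factor STAT5. STAT5 switches on survival genes and genes of the CISH and SOCS family, whose products dampen the same receptor signal. Frog red cells keep their nucleus and can change their RNA after they have entered the blood, and they circulate with nucleated thrombocytes and with leukocytes, so a library holds RNA of several cell types.

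Expression was read by 3' RNA-seq and is given as CPM, a gene's share of its library's counts scaled to a fixed total, with libraries scaled by TMM. The EPO libraries held 3904765 to 5868379 counts, the control 1.5 h libraries 2350234 to 4472724 and the fresh libraries 1329340 to 2329659. The EPO group was thus the deepest and the fresh group the shallowest, and 3 counts amount to 0.492 to 0.724 CPM in EPO libraries, 0.748 to 1.31 CPM in control libraries and 1.30 to 2.21 CPM in fresh libraries. Globin genes took 42.2% to 46.6% of the counts in EPO libraries, 43.3% to 48.4% in control libraries and 44.4% to 48.3% in fresh libraries. Levels are not corrected for gene length and are compared only within a gene. Values of 3 libraries are listed in the order of replicates 1, 2 and 3.

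After 1.5 h with EPO, 388 genes were higher (4.34% of those tested) and 351 lower (3.93%) than in fresh cells at an adjusted p below 0.05 in edgeR's quasi-likelihood test with the replicate number as a block, 8.27% in all. In 2095 genes (23.4%) the 3 EPO libraries did not overlap the 3 fresh ones. Of the called genes, 282 of the higher and 249 of the lower genes had a fitted change of more than 2-fold. A test for a change beyond 2-fold called 61 genes higher and 18 lower. The median log2 fold change over all genes tested was 0.02. The control culture, set against the same 3 fresh libraries, had 63 genes higher (0.705% of those tested) and 54 lower (0.604%), 1.31% in all. The direct test of EPO against control culture at 1.5 h called 96 genes higher (1.07%) and 43 lower (0.481%), 1.55% in all. The log2 fold changes of control over fresh and of EPO over control add up to that of EPO over fresh for each gene, and all these comparisons share libraries. Of the 388 higher genes, 89 were also called higher in EPO than in control culture, and of the 351 lower genes, 28 were also called lower there. Without the replicate block the counts were 242 higher and 255 lower for EPO against fresh, 16 and 13 for control against fresh, and 34 and 5 for EPO against control. Of the control calls given below, those on socs1, cish, junb, atf4, bcl2l10 and tmsb4x did not pass without the block, and that on atf4 did not pass without control replicate 1 or 2 or fresh replicate 1. The split between higher and lower moved with the tool and the filter, to 279 higher and 409 lower with limma voom and 413 higher and 239 lower without a filter on low counts. Leaving out EPO replicate 3 gave the smallest count of any fit without 1 library, 256 higher and 187 lower.

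**Figure D1:**
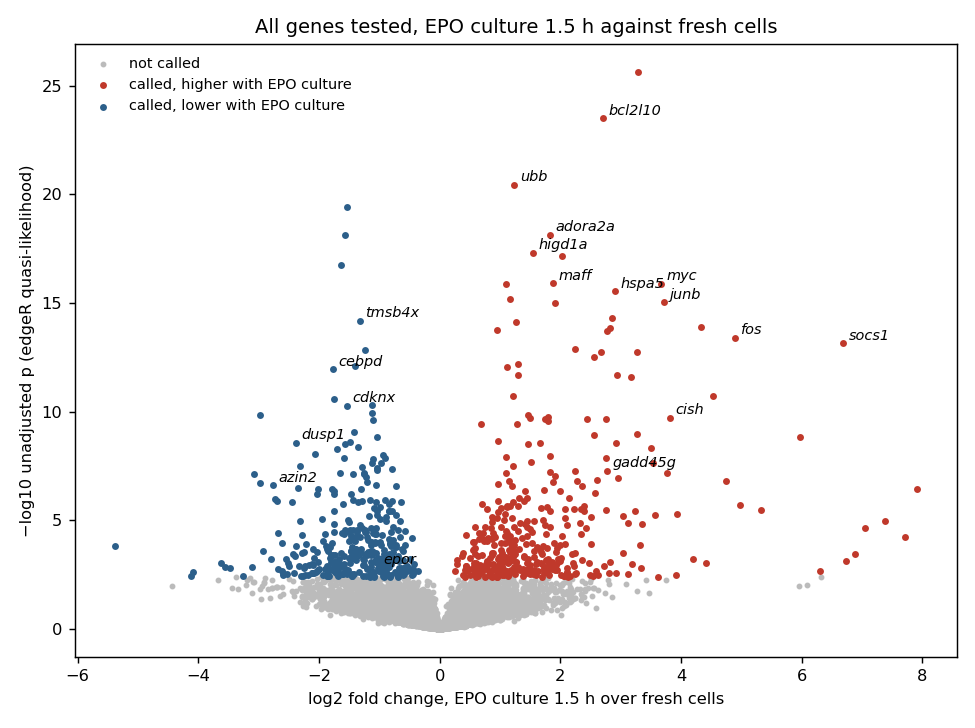
Each point is 1 of the 8939 genes tested. The x axis gives the log2 fold change of EPO culture at 1.5 h over fresh cells and the y axis the negative log10 of the unadjusted edgeR p. The 388 genes called higher are red, the 351 called lower are blue, and the genes not called are grey. Points at the far right include genes with 0 or few counts in the fresh libraries, whose fitted fold is not a measured size.

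Among the receptor and its signalling machinery 1 gene rose and 1 fell. Of 25 listed components of EPO receptor signalling in the table, 16 had enough counts to be tested, and 2 were called in edgeR's test (12.5%, against 8.27% of all genes tested; median log2 fold change 0.12). DESeq2 called 1 higher and 3 lower, and limma voom 0 higher and 3 lower. The member called lower by edgeR was epor, the EPO receptor gene itself. It lay at 43.9, 116 and 68.8 CPM in the EPO libraries, against 141, 173 and 171 CPM in control culture and 134, 125 and 193 CPM in fresh cells. All 3 EPO libraries lay below all 3 fresh libraries and below all 3 control libraries. The log2 fold change of EPO over fresh was -1.03 ± 0.254 (SE, edgeR adjusted p = 0.0247), that of control over fresh 0.10 ± 0.251 (adjusted p = 0.927), and that of EPO over control -1.13 ± 0.248 (adjusted p = 0.0435). The calls on epor were not firm. The adjusted p of EPO over fresh was 0.0658 without the replicate block, 0.161 without EPO replicate 3, 0.17 without fresh replicate 1 and 0.117 without fresh replicate 3. That of EPO over control was 0.196 without the block, and 0.289, 0.197, 0.0643 and 0.253 without EPO replicate 3 and control replicates 1, 2 and 3 in turn.

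The kinase gene jak2 was not called, with 83.9, 86.1 and 93.9 CPM in EPO culture, 53.2, 62.4 and 105 CPM in control culture and 53.9, 75.4 and 77.8 CPM in fresh cells (log2 fold change of EPO over fresh 0.36 ± 0.158, edgeR adjusted p = 0.169). The STAT gene stat5b, with 27 counts over the 15 libraries, had too few to be tested. The component called higher by edgeR was ptpn6, the gene of the phosphatase SHP-1, which removes phosphate from cytokine receptors and their kinases. It lay at 14.2, 11.2 and 8.03 CPM in EPO culture and 4.43, 4.33 and 3.51 CPM in fresh cells (log2 fold change 1.39 ± 0.448, adjusted p = 0.0401). Leaving out any 1 of the 6 libraries ended this call, with adjusted p-values of 0.0905, 0.178 and 0.0642 without EPO replicates 1, 2 and 3 and of 0.158, 0.0643 and 0.0907 without fresh replicates 1, 2 and 3. Without the replicate block it was 0.0774.

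The feedback inhibitors of cytokine receptors were among the largest rises. The gene socs1, whose product binds and inhibits JAK kinases, lay at 127, 108 and 117 CPM in EPO culture, 61.1, 26.9 and 43 CPM in control culture and 1.48, 0 and 2.34 CPM in fresh cells. It was barely counted in fresh blood, with 1 of the 3 libraries at 0, and the 3 groups did not overlap. Its log2 fold change over fresh was 6.69 ± 0.476 with EPO (SE, edgeR adjusted p = 2.62e-11) and 5.15 ± 0.525 in control culture (adjusted p = 3.05e-07). The step from control to EPO was 1.54 ± 0.266 (adjusted p = 7.11e-04, and 0.537 without the replicate block).

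The gene cish, the founding member of the family and a STAT5 target, lay at 365, 367 and 367 CPM in EPO culture, 98.2, 87.1 and 103 CPM in control culture and 12.6, 18.6 and 50.9 CPM in fresh cells. The EPO libraries were nearly equal, while fresh replicate 3 held more than the other fresh libraries, and the groups did not overlap. Over fresh the log2 fold change was 3.82 ± 0.27 with EPO (edgeR adjusted p = 3.70e-08) and 1.87 ± 0.274 in control culture (adjusted p = 0.00132), and that of EPO over control was 1.95 ± 0.227 (adjusted p = 6.54e-05). The related gene socs3 lay at 250.3, 278 and 181 CPM in EPO culture, 192, 84.1 and 108 CPM in control culture and 19.9, 3.03 and 3.51 CPM in fresh cells. Its values in EPO and control culture overlapped, and both lay above the fresh ones. It differed from fresh by a log2 fold change of 4.97 ± 0.477 with EPO (adjusted p = 1.14e-04) and 4.03 ± 0.489 in control culture (adjusted p = 0.00324), and the difference between EPO and control culture was 0.94 ± 0.331 (adjusted p = 0.324). A further member, socs2, was not called and lay at 6.75, 10.7 and 18.8 CPM in EPO culture and 3.69, 2.17 and 18.1 CPM in fresh cells (log2 fold change 0.81 ± 0.478, adjusted p = 0.334).

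**Figure D2:**
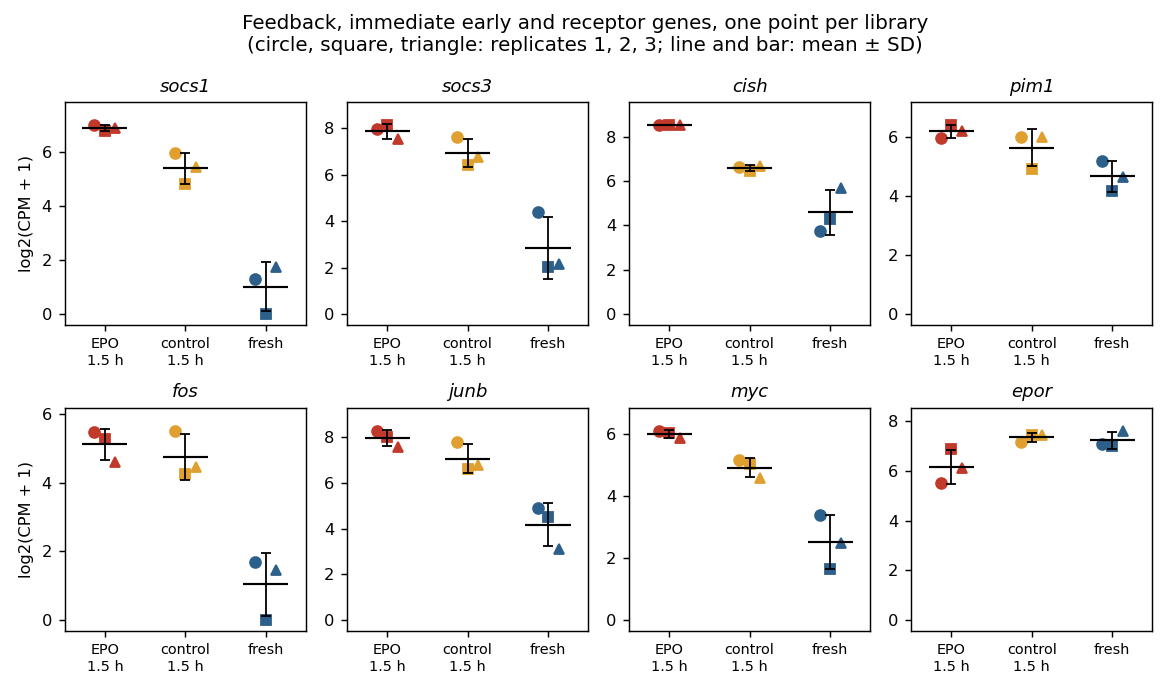
Each panel shows 1 gene, with log2(CPM + 1) on the y axis and the EPO 1.5 h, control 1.5 h and fresh groups on the x axis. Points are libraries, shaped by replicate number, and the line and bar give the mean and SD of 3 libraries. In socs1, socs3, cish, pim1, fos, junb and myc the EPO points lie above all fresh points, and in epor they lie below them.

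Of the 19 listed cytokine feedback and STAT5 target genes in the table, 16 were tested, 6 rose and 1 fell. The share called was 43.8%, beside 8.27% of all genes tested (median log2 fold change 0.63). Beside socs1, cish and socs3 the members that rose were pim1, mcl1 and erfe. The kinase gene pim1, a STAT5 target in mammals, lay at 61.7, 83.5 and 72.9 CPM in EPO culture, 62.8, 29.2 and 62.9 CPM in control culture and 35.4, 16.9 and 24 CPM in fresh cells. EPO libraries lay above the fresh ones but not apart from the control ones, with a log2 fold change of 1.57 ± 0.291 over fresh (edgeR adjusted p = 5.17e-04) and of 0.52 ± 0.26 over control (adjusted p = 0.519). Erythroferrone, erfe, is the signal by which red cell precursors call for iron in mammals. It lay at 137, 112 and 156 CPM in EPO culture and 76, 76.7 and 119 CPM in fresh cells, which overlap (log2 fold change 0.57 ± 0.144, adjusted p = 0.00549, 0.0648 without fresh replicate 1 and 0.133 without the replicate block). The member that fell was the repressor gene gfi1b, described with the erythroid factors.

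The BCL2 family holds genes that block cell death and genes that promote it. Of 16 family genes in the table, 9 were tested, and 3 rose in edgeR's test, bcl2l10, bcl2l14 and mcl1. The share called was 33.3%, beside 8.27% of all genes tested (median log2 fold change 0.23). The gene bcl2l10, a family member that blocks cell death in most settings studied, lay at 274, 260.4 and 365 CPM in EPO culture, 89, 56.6 and 127 CPM in control culture and 41.3, 31.6 and 69.6 CPM in fresh cells. The EPO libraries lay above all others, and within each group replicate 3 was the highest and replicate 2 the lowest. EPO over fresh gave a log2 fold change of 2.71 ± 0.151 (adjusted p = 1.45e-20), the smallest adjusted p of the genes named here, and control culture was at 0.93 ± 0.154 over fresh (adjusted p = 8.35e-05).

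The gene bcl2l14, whose product (BCL-G) was described in mammals as promoting cell death, lay at 143, 113 and 105 CPM in EPO culture, 72, 60.1 and 52.1 CPM in control culture and 25.8, 32.1 and 35.7 CPM in fresh cells, again in 3 groups that did not overlap (log2 fold change of EPO over fresh 1.90 ± 0.169, edgeR adjusted p = 5.53e-13). The short-lived survival gene mcl1 lay at 342, 326 and 347 CPM in EPO culture, 241, 157 and 248 CPM in control culture and 153, 127 and 146 CPM in fresh cells (log2 fold change 1.26 ± 0.118, adjusted p = 3.58e-12). The gene bcl2l1, which encodes BCL-XL and is the survival gene through which EPO keeps mammalian red cell precursors alive, was not called. It lay at 103, 114 and 97 CPM in EPO culture, 103, 120.0 and 99.1 CPM in control culture and 88.6, 94.5 and 84.2 CPM in fresh cells (log2 fold change 0.23 ± 0.135, adjusted p = 0.331).

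Immediate early transcription factors, which cells switch on within minutes of a stimulus without new protein synthesis, held the largest share of called genes of the 29 lists. Of 32 listed genes 21 were tested, 10 rose and 3 fell (61.9% called, beside 8.27% of all genes tested, median log2 fold change 1.38). The gene fos lay at 43.9, 37.4 and 23.4 CPM in EPO culture, 44.5, 18.2 and 21.1 CPM in control culture and 2.21, 0 and 1.75 CPM in fresh cells. EPO and control values overlapped, and both stood far above fresh cells, 1 library of which held no fos counts. Set against fresh, fos had a log2 fold change of 4.89 ± 0.48 with EPO (edgeR adjusted p = 1.50e-11) and 4.48 ± 0.497 in control culture (adjusted p = 8.06e-09). The difference between EPO and control culture was 0.41 ± 0.283 (adjusted p = 0.713).

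Its partner junb lay at 308, 259 and 190.2 CPM in EPO culture, 220.3, 95.8 and 109.8 CPM in control culture and 28.8, 22.1 and 7.6 CPM in fresh cells, with a log2 fold change over fresh of 3.72 ± 0.22 with EPO (edgeR adjusted p = 5.51e-13) and 2.82 ± 0.224 in control culture (adjusted p = 4.57e-09). In both jun genes and in fos replicate 1 or 2 of EPO culture was the highest and replicate 3 the lowest. The other partner, jun, lay at 39.3, 42 and 19.5 CPM in EPO culture, 8.73, 35.7 and 13.5 CPM in control culture and 5.91, 5.63 and 5.85 CPM in fresh cells (log2 fold change of EPO over fresh 2.56 ± 0.348, adjusted p = 1.88e-07). The growth regulator myc lay at 68.3, 64.6 and 57.7 CPM in EPO culture, 34.9, 31.7 and 23.1 CPM in control culture and 9.6, 2.17 and 4.68 CPM in fresh cells, in 3 groups that did not overlap. For myc the log2 fold change over fresh was 3.67 ± 0.309 with EPO (adjusted p = 1.04e-13) and 2.57 ± 0.326 in control culture (adjusted p = 2.71e-07).

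The small MAF gene maff, whose protein binds DNA with other leucine zipper factors, had a different split between culture and EPO. It lay at 164, 148 and 144 CPM in EPO culture, 48.9, 63.6 and 73.6 CPM in control culture and 42.8, 41.6 and 39.2 CPM in fresh cells. Its log2 fold change over fresh was 1.88 ± 0.158 with EPO (edgeR adjusted p = 1.04e-13) and 0.59 ± 0.164 in control culture (adjusted p = 0.0517), and EPO over control was 1.29 ± 0.145 (adjusted p = 7.27e-09). The zinc finger gene egr1 lay at 27, 16.4 and 17.4 CPM in EPO culture and 19.2, 3.03 and 0 CPM in fresh cells, where replicate 1 held as much as the EPO libraries and replicate 3 none. Its log2 fold change was 1.79 ± 0.492 (adjusted p = 0.0132), and 3.42 without fresh replicate 1 (adjusted p = 5.33e-05). The call was lost without EPO replicate 3 (adjusted p = 0.0742), fresh replicate 2 (0.102), fresh replicate 3 (0.121) or the replicate block (0.218).

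The transcription factors of this list that fell were cebpd, egr3 and mafg, the last with an adjusted p of 0.0229 that passed without fresh replicate 3 but in no other fit without 1 library (adjusted p = 0.0621 to 0.176). The gene cebpd, an acute phase regulator, lay at 45.6, 130.1 and 88 CPM in EPO culture, 182, 343 and 308 CPM in control culture and 144, 303 and 455 CPM in fresh cells. Control and fresh values overlapped, and EPO values lay below both. The log2 fold change was -1.77 ± 0.152 over fresh (edgeR adjusted p = 3.03e-10) and -1.71 ± 0.15 over control (adjusted p = 3.07e-09), and without the replicate block the adjusted p-values were 0.1 and 0.436. The gene egr3 lay at 28.2, 25.8 and 26.7 CPM in EPO culture, 29.7, 34.7 and 44.2 CPM in control culture and 76, 47.2 and 77.8 CPM in fresh cells (log2 fold change of EPO over fresh -1.29 ± 0.2, adjusted p = 3.59e-06). The phosphatase gene dusp1, an immediate early gene whose product switches off MAP kinases, also went against the direction of fos and junb. It lay at 9.41, 7.12 and 5.24 CPM in EPO culture, 11.8, 8.98 and 8.75 CPM in control culture and 69.4, 21.2 and 32.2 CPM in fresh cells. All EPO and control libraries lay below the lowest fresh library, with log2 fold changes over fresh of -2.38 ± 0.334 with EPO (adjusted p = 3.79e-07) and -1.92 ± 0.339 in control culture (adjusted p = 2.50e-04). Of the 15 immediate early feedback regulators tested, of 30 in the table, edgeR called 3, beside 8.27% of all genes tested. Among them dusp1 was the 1 that fell and 2 rose (median log2 fold change of the list 0.15). DESeq2 and limma voom each called 1 higher and 1 lower. The riser zfp36 had overlapping EPO and fresh libraries (log2 fold change 0.61 ± 0.195, edgeR adjusted p = 0.0492). Its call held in 2 of 6 fits without 1 library and in 2 of 10 other alternatives.

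Genes of the amino acid response, which the factor ATF4 drives when amino acids run short or other stresses halt translation, rose in part. Of 40 listed genes 31 were tested, and 9 rose in edgeR's test (29.0%, beside 8.27% of all genes tested, median log2 fold change 0.55). Control culture against the same fresh cells had 4 of the 31 higher. Of these control calls, those on atf4, slc3a2 and slc38a2 did not pass without the replicate block. For the remaining one, nupr1 (control over fresh 0.62 ± 0.133, edgeR adjusted p = 0.00435), the result of that fit is not given here. The factor itself, atf4, lay at 457, 339.9 and 358 CPM in EPO culture, 286, 233 and 193 CPM in control culture and 176, 162 and 168 CPM in fresh cells. The 3 groups did not overlap, and the log2 fold change was 1.17 ± 0.103 with EPO over fresh (adjusted p = 4.04e-13), 0.47 ± 0.104 in control over fresh (adjusted p = 0.00511) and 0.70 ± 0.099 in EPO over control (adjusted p = 1.83e-06). The gene ddit3, which encodes the stress factor CHOP, lay at 92.6, 67.4 and 58.5 CPM in EPO culture, 33.2, 18 and 22.7 CPM in control culture and 13.3, 15.2 and 15.8 CPM in fresh cells. Its log2 fold change was 2.24 ± 0.227 with EPO over fresh (adjusted p = 4.34e-11), and 0.65 ± 0.248 in control over fresh (adjusted p = 0.239).

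The amino acid uptake genes slc3a2, slc38a2 and slc1a5 of this list changed in the same direction. Outside the list, the transporter gene slc7a13 fell (log2 fold change of EPO over fresh -2.04 ± 0.525, edgeR adjusted p = 0.00719). The fits in which its call was lost stand with the largest falls. The heavy chain gene slc3a2, which brings transporters of large neutral amino acids to the membrane, lay at 73.1, 39.7 and 50.1 CPM in EPO culture, 29.2, 14.2 and 15.1 CPM in control culture and 5.17, 8.24 and 9.94 CPM in fresh cells (log2 fold change of EPO over fresh 2.67 ± 0.274, edgeR adjusted p = 5.76e-11). The neutral amino acid transporter gene slc38a2 lay at 348, 208 and 183 CPM in EPO culture, 133, 60.6 and 68.4 CPM in control culture and 55.4, 41.2 and 26.3 CPM in fresh cells (log2 fold change 2.56 ± 0.2, adjusted p = 8.99e-11). In all of atf4, ddit3, slc3a2 and slc38a2, replicate 1 was the highest of the 3 EPO libraries. The glutamine transporter gene slc1a5 lay at 62.7, 22.8 and 37.5 CPM in EPO culture and 4.43, 9.97 and 7.02 CPM in fresh cells (log2 fold change 2.36 ± 0.379, adjusted p = 2.09e-05). The asparaginyl-tRNA synthetase gene nars1 lay at 40.8, 21.2 and 34.1 CPM in EPO culture, 10.5, 12.2 and 6.37 CPM in control culture and 14.8, 8.67 and 10.5 CPM in fresh cells. Control and fresh values of nars1 overlapped, and the log2 fold change was 1.49 ± 0.324 over fresh (adjusted p = 0.00107) and 1.61 ± 0.309 over control (adjusted p = 6.18e-04). For chac1, a glutathione-degrading ATF4 target, the fresh libraries held 3 counts in all and the EPO libraries 101, a ratio of 11.4 (95% counting interval 3.79 to 56.2). The rest of the list that rose were atf5.2 (log2 fold change 1.50 ± 0.192, adjusted p = 3.70e-08) and nupr1 (0.55 ± 0.131, adjusted p = 0.00309), and the call on nupr1 did not hold without the replicate block (adjusted p = 0.305) or in all fits without 1 library (highest adjusted p = 0.0931).

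Chaperones, which fold proteins and bind misfolded ones, rose in part. Of 50 listed heat shock protein and co-chaperone genes 38 were tested, and 12 rose in edgeR's test. The share called was 31.6%, beside 8.27% of all genes tested (median log2 fold change 0.42). Control culture over the same fresh cells had 4 higher, hspa5, hsp90ab1, hspa1b and hspa8. These control calls did not pass without the replicate block. The endoplasmic reticulum chaperone gene hspa5 (BiP) lay at 129, 76.7 and 53.7 CPM in EPO culture, 41.4, 23.2 and 12.3 CPM in control culture and 28.8, 6.94 and 4.09 CPM in fresh cells. Within every group replicate 1 was the highest and replicate 3 the lowest, and EPO values lay above all fresh values. For hspa5 the log2 fold change over fresh was 2.90 ± 0.249 (adjusted p = 2.04e-13, and 0.0599 without the replicate block). The inducible cytosolic chaperone gene hspa1b lay at 64.4, 62.5 and 25.6 CPM in EPO culture, 13.1, 30.9 and 13.5 CPM in control culture and 5.91, 7.8 and 5.85 CPM in fresh cells (log2 fold change 2.94 ± 0.324, adjusted p = 5.32e-10). How reads of similar heat shock genes were divided is not given in the sources used here, so levels of hspa1b and hspa1l are uncertain.

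The HSP90 gene hsp90ab1 lay at 172, 163 and 135 CPM in EPO culture, 148, 96.3 and 82.8 CPM in control culture and 73.8, 68.9 and 50.3 CPM in fresh cells (log2 fold change of EPO over fresh 1.29 ± 0.138, edgeR adjusted p = 1.84e-10). Its constitutive partner hspa8 lay at 571, 524 and 441 CPM in EPO culture, 471, 437 and 352 CPM in control culture and 399, 322 and 242 CPM in fresh cells (log2 fold change 0.69 ± 0.0901, adjusted p = 5.99e-08). In both genes the control mean lay between, and control values overlapped those of at least 1 other group. The remaining called members included the co-chaperones dnaja1 (1.30 ± 0.245, adjusted p = 1.32e-04) and dnajb1 (1.17 ± 0.22, adjusted p = 1.36e-04) and the chaperonin subunits cct4 (1.02 ± 0.194, adjusted p = 1.61e-04) and tcp1 (0.86 ± 0.178, adjusted p = 5.56e-04), each given as the log2 fold change of EPO over fresh with its SE. For dnajb1 the value was 0.75 without fresh replicate 2. Of 23 tested genes of the unfolded protein response, of 27 in the table, 5 rose and 1 fell in edgeR's test. DESeq2 called 5 higher and 0 lower, and limma voom 3 higher and 1 lower. The share called by edgeR was 26.1%, beside 8.27% of all genes tested. The risen genes hspa5, ddit3 and hsp90b1 also stand in the lists above. Beside them sec61a1 and derl2 rose, whose calls held in 2 and 3 of 6 fits without 1 library. The call on hsp90b1 was lost without the replicate block (adjusted p = 0.119), EPO replicate 1 or 3 or fresh replicate 1 or 3 (highest adjusted p = 0.205).

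Ubiquitin, autophagy and splicing genes were also among the rises. Of 31 tested ubiquitin and autophagy genes, of 37 in the table, 6 rose in edgeR's test. The share called was 19.4%, beside 8.27% of all genes tested (median log2 fold change 0.18). DESeq2 called 6 higher and limma voom 4. The calls on the members lamp1 and nbr1 held in 2 and 3 of 6 fits without 1 library. The polyubiquitin gene ubb lay at 1045, 966 and 1272 CPM in EPO culture, 746, 605 and 779.8 CPM in control culture and 415, 404 and 578 CPM in fresh cells. EPO libraries lay above all control libraries and those above all fresh libraries, with a log2 fold change of EPO over fresh of 1.24 ± 0.0807 (adjusted p = 1.10e-17). The autophagy receptor gene sqstm1 lay at 736, 461 and 483 CPM in EPO culture, 523, 331 and 326 CPM in control culture and 318, 292 and 245 CPM in fresh cells (log2 fold change 0.94 ± 0.0903, adjusted p = 7.32e-12). Of the 42 proteasome subunit genes tested 1 rose (2.38%, below the 8.27% called of all genes tested). Of 32 SR and hnRNP splicing factor genes 7 rose (21.9% called, median log2 fold change 0.24), led by srsf5. It lay at 309, 333 and 344 CPM in EPO culture, 243, 220.3 and 279.7 CPM in control culture and 99.7, 175 and 187 CPM in fresh cells (log2 fold change 1.11 ± 0.118, adjusted p = 2.37e-10). The next was srsf7 (1.32 ± 0.275, adjusted p = 5.72e-04).

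Genes of NF-kB and interferon signalling rose in part. Of 19 tested NF-kB and inflammatory genes, of 29 in the table, 6 rose and 1 fell (median log2 fold change 0.55). Of 18 tested interferon response genes, of 26 in the table, 7 rose and 1 fell (median 0.85), and irf1 stands in both lists. The shares called were 36.8% of the NF-kB list and 44.4% of the interferon list, beside 8.27% of all genes tested. The gene irf1, a transcription factor that cytokines induce through STAT proteins, lay at 462, 559.7 and 307 CPM in EPO culture, 369, 185 and 164 CPM in control culture and 40.6, 35.1 and 22.8 CPM in fresh cells. EPO and control values overlapped, and both lay far above the fresh ones. For irf1 the log2 fold change over fresh was 3.77 ± 0.278 with EPO (edgeR adjusted p = 6.52e-06) and 2.82 ± 0.279 in control culture (adjusted p = 4.11e-04). The inhibitor gene nfkbia, which NF-kB itself switches on, lay at 118, 168 and 113 CPM in EPO culture, 142, 132 and 133 CPM in control culture and 35.4, 65.9 and 67.2 CPM in fresh cells. Its rise over fresh was of a like size in both cultures, 1.22 ± 0.177 with EPO (adjusted p = 3.42e-06) and 1.28 ± 0.18 in control culture (adjusted p = 9.32e-06).

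The NF-kB subunit gene relb lay at 40.8, 35.6 and 13.8 CPM in EPO culture, 16.1, 10.2 and 3.98 CPM in control culture and 13.3, 4.77 and 2.34 CPM in fresh cells, with the highest fresh library just under the lowest EPO library (log2 fold change 2.24 ± 0.354, edgeR adjusted p = 5.20e-06). The interferon factor gene irf9 lay at 75, 56.2 and 59.5 CPM in EPO culture, 34.5, 40.9 and 37.4 CPM in control culture and 17, 21.7 and 29.2 CPM in fresh cells (log2 fold change 1.46 ± 0.206, adjusted p = 4.15e-07). Both irf7 (log2 fold change 1.41 ± 0.245, adjusted p = 3.33e-05) and tap1, which encodes a peptide transporter of antigen presentation (2.00 ± 0.347, adjusted p = 3.33e-05), rose over fresh. The adaptor gene of Toll-like receptors, myd88, rose by 1.21 ± 0.222 (adjusted p = 8.81e-05). The interferon-induced gene that fell was ifit5, with 53.3, 48.1 and 54.1 CPM in EPO culture, 58, 58.4 and 74.8 CPM in control culture and 113, 78.5 and 76.6 CPM in fresh cells. Its log2 fold change was -0.77 ± 0.166 (adjusted p = 8.81e-04, and 0.0683 without fresh replicate 1).

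Genes of polyamine metabolism were called in both directions. Of 15 listed genes 12 were tested, 3 rose and 2 fell (41.7% called, beside 8.27% of all genes tested, median log2 fold change 0.38). Ornithine decarboxylase, odc1, is the first enzyme of polyamine synthesis and a myc target in mammals. It lay at 55.2, 31.3 and 38.3 CPM in EPO culture, 42.8, 16.5 and 22.7 CPM in control culture and 5.91, 2.6 and 4.68 CPM in fresh cells (log2 fold change of EPO over fresh 3.27 ± 0.335, edgeR adjusted p = 5.76e-11). The antizyme inhibitor gene azin2, whose protein protects ornithine decarboxylase from breakdown, lay at 1.93, 3.38 and 1.15 CPM in EPO culture, 18.8, 15.7 and 7.56 CPM in control culture and 17.7, 26 and 3.51 CPM in fresh cells. It was low in all EPO libraries, and fresh replicate 3 was the lowest of the others. The log2 fold change was -2.76 ± 0.467 over fresh (adjusted p = 1.98e-05), -0.07 ± 0.423 in control over fresh (adjusted p = 0.97) and -2.69 ± 0.457 in EPO over control (adjusted p = 6.94e-05). The polyamine acetylating enzyme gene sat1 rose by 1.53 ± 0.337 (adjusted p = 0.00129). The spermidine synthase gene srm, of a later step of synthesis, fell. It lay at 21.9, 14.4 and 14.4 CPM in EPO culture, 17.5, 15.5 and 25.1 CPM in control culture and 40.6, 33.4 and 25.7 CPM in fresh cells (log2 fold change -0.98 ± 0.268, adjusted p = 0.0124). The call on srm was lost without EPO replicate 2 (adjusted p = 0.0794), EPO replicate 3 (0.116), fresh replicate 1 (0.11) or fresh replicate 2 (0.0723).

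Genes that restrain growth were split. Of 29 listed genes 20 were tested, 2 rose and 3 fell (25.0% called, beside 8.27% of all genes tested, median log2 fold change -0.01). The stress gene gadd45g lay at 409.8, 720.4 and 521 CPM in EPO culture, 383, 352 and 357 CPM in control culture and 41.3, 124 and 74.8 CPM in fresh cells. EPO and control culture both stood above fresh cells, with log2 fold changes of 2.78 ± 0.229 (edgeR adjusted p = 5.20e-06) and 2.23 ± 0.23 (adjusted p = 2.40e-04). The sestrin gene sesn1, whose product holds back the growth kinase mTORC1, lay at 3.62, 7.83 and 4.59 CPM in EPO culture, 16.1, 33.7 and 43.4 CPM in control culture and 46.5, 14.3 and 22.2 CPM in fresh cells. Control and fresh values overlapped and EPO values lay below both. The log2 fold change over fresh was -2.34 ± 0.376 (adjusted p = 2.51e-05), and -1.51 without fresh replicate 1, the highest fresh library (adjusted p = 0.00188). The Xenopus cyclin-dependent kinase inhibitor gene cdknx lay at 18.3, 32.7 and 19.99 CPM in EPO culture, 54.1, 109.5 and 102 CPM in control culture and 40.6, 84.5 and 83 CPM in fresh cells. Replicate 1 was the lowest in every group, and the log2 fold change was -1.54 ± 0.188 over fresh (adjusted p = 1.14e-08, and 0.0721 without the replicate block). The other gene called higher was foxo1, a factor of growth arrest, which was higher by 1.25 ± 0.32 (adjusted p = 0.0067, and 0.0695 without EPO replicate 3).

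Among the 15 largest rises by the naming rule were genes of no list. The coenzyme Q binding protein gene coq10b lay at 128, 133 and 105 CPM in EPO culture, 30.5, 19.2 and 37 CPM in control culture and 5.17, 2.6 and 6.43 CPM in fresh cells (log2 fold change of EPO over fresh 4.74 ± 0.489, edgeR adjusted p = 1.34e-05). The RING finger gene rnf227 lay at 38.3, 51.1 and 44.9 CPM in EPO culture, 11.8, 7.73 and 10.3 CPM in control culture and 0.738, 3.9 and 1.17 CPM in fresh cells (log2 fold change 4.33 ± 0.412, adjusted p = 5.89e-12). In both genes control culture lay between EPO and fresh cells and overlapped neither. That EPO and fresh libraries did not overlap was required by the naming rule. The decoy receptor gene tnfrsf6b lay at 33.5, 22.8 and 9.99 CPM in EPO culture, 9.6, 10.2 and 3.18 CPM in control culture and 1.48, 1.3 and 0 CPM in fresh cells (log2 fold change 4.53 ± 0.535, adjusted p = 4.57e-09). Adrenomedullin, adm, is a secreted peptide that widens vessels and answers low oxygen. It had 221 counts in the EPO libraries and 1 in the fresh ones, a ratio of 74.8 after allowing for depth (95% counting interval 13.3 to 2968), with 9.89, 20.8 and 10.3 CPM in EPO culture and 29.7, 11.7 and 13.1 CPM in control culture. EPO and control values of adm overlapped. The chaperone gene hspa1l was among these rises at 20.5, 9.61 and 5.9 CPM in EPO culture and 4.43, 0 and 0 CPM in fresh cells, of which 2 held none. Its log2 fold change was 3.35 ± 0.701 (adjusted p = 6.54e-04, and 0.0825 without the replicate block). The size of this change is uncertain, since fresh replicate 1 held all 6 fresh counts. The call held in 6 of 6 fits without 1 library.

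Of the 15 largest falls, azin2, dusp1 and sesn1 are given above, and cybb, itgb3 and f13a1 stand with the markers of other blood cells. The gene ahnak2, of a giant scaffold protein, lay at 3.38, 1.96 and 4.26 CPM in EPO culture, 13.1, 5.49 and 10.7 CPM in control culture and 24.4, 11.3 and 17 CPM in fresh cells (log2 fold change -2.45 ± 0.452, edgeR adjusted p = 9.15e-05). The transcription factor gene foxp4 lay at 4.1, 5.69 and 7.86 CPM in EPO culture, 23.6, 9.48 and 12.7 CPM in control culture and 19.2, 26.9 and 26.9 CPM in fresh cells (log2 fold change -2.03 ± 0.358, adjusted p = 4.29e-05). The receptor gene glp1r lay at 6.51, 7.12 and 5.73 CPM in EPO culture, 14.4, 8.23 and 14.7 CPM in control culture and 41.3, 23 and 14 CPM in fresh cells (log2 fold change -1.95 ± 0.396, adjusted p = 4.08e-04). For these genes EPO libraries lay below all fresh libraries, which the naming rule required of every gene among the largest falls. The fall of c1orf198 rested on 1 library: fresh replicates 1, 2 and 3 held 70.9, 5.2 and 7.6 CPM against 3.86, 3.03 and 3.44 CPM in EPO culture, and its adjusted p of 0.00326 became 0.536 without fresh replicate 1. Calls on pgrmc1, slc7a13, chd7 and hoxc4 were also lost without 1 library. The adjusted p was 0.064 and 0.0576 for pgrmc1 and 0.0568 and 0.052 for slc7a13 without EPO replicate 1 or 2, and 0.0574 for chd7 and 0.0684 for hoxc4 without fresh replicate 1.

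**Figure D3:**
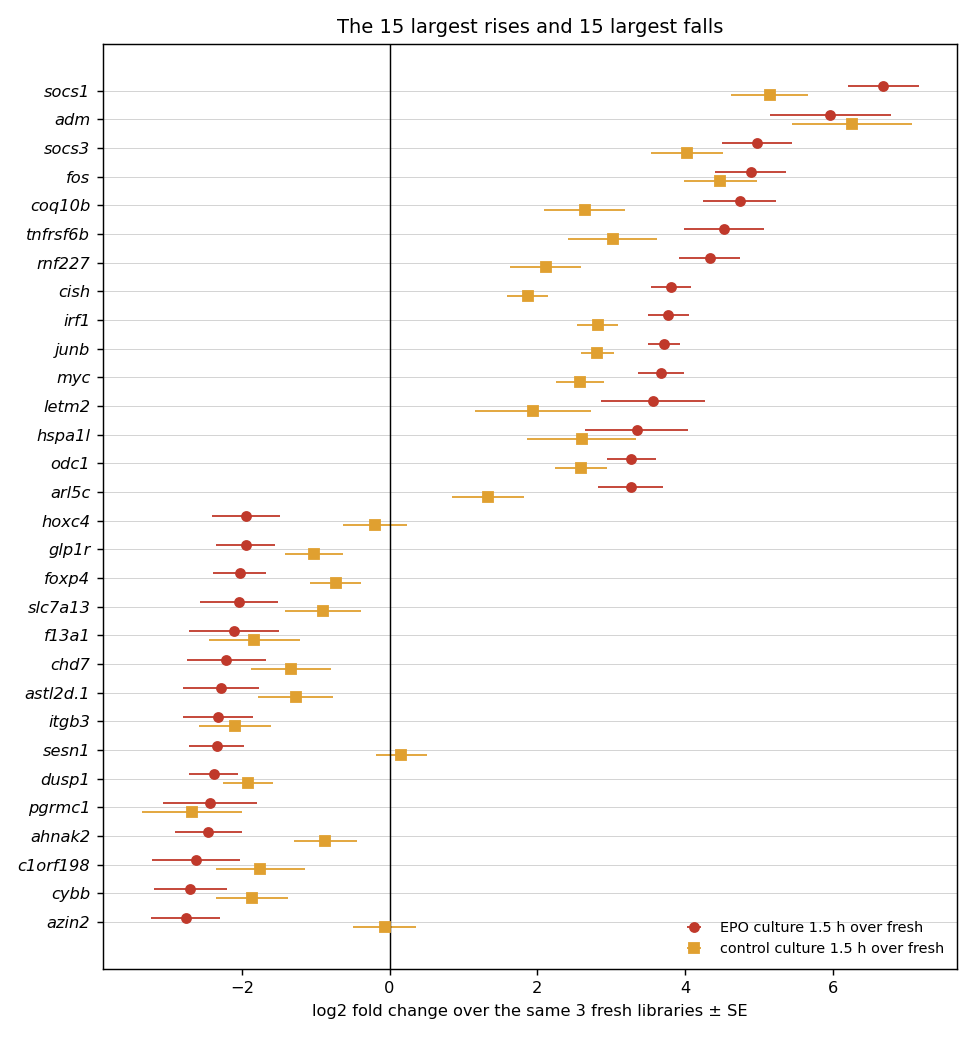
The 15 largest rises and 15 largest falls of EPO culture at 1.5 h over fresh cells (red circles), with control culture at 1.5 h over the same 3 fresh libraries (yellow squares). The x axis is the log2 fold change and the bars are its SE. The control values lie at or near 0 for azin2, sesn1 and hoxc4 and close to the EPO values for fos, dusp1 and itgb3. The fitted values of adm rest on 1 fresh count.

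Several genes had most of their change between control and EPO culture. They were picked for their small p of EPO against control, so that test adds no support here. The adenosine receptor gene adora2a lay at 253, 299.5 and 312 CPM in EPO culture, 103, 101 and 127 CPM in control culture and 66.4, 89.7 and 85.9 CPM in fresh cells, with a log2 fold change of EPO over fresh of 1.83 ± 0.135 (edgeR adjusted p = 1.17e-15) and of EPO over control of 1.39 ± 0.128 (adjusted p = 1.41e-11). The gene lima1, of a protein that cross-links actin, lay at 66.3, 58.7 and 75.7 CPM in EPO culture, 15.7, 22.2 and 16.7 CPM in control culture and 8.86, 7.8 and 11.7 CPM in fresh cells. On the log2 scale EPO culture differed by 2.82 ± 0.268 over fresh (adjusted p = 5.93e-12) and 1.82 ± 0.229 over control (adjusted p = 1.12e-07). The mitochondrial gene higd1a, which is induced by low oxygen in mammals, lay at 607, 430.1 and 484 CPM in EPO culture, 289.7, 221 and 253 CPM in control culture and 153, 143 and 217 CPM in fresh cells. It was 1.55 ± 0.114 over fresh (adjusted p = 6.38e-15) and 0.99 ± 0.109 over control on the log2 scale (adjusted p = 8.63e-09). In adora2a, lima1 and higd1a every EPO library lay above every library of the other groups. The ceramidase gene acer2 lay at 206, 141 and 253 CPM in EPO culture, 92.9, 46.2 and 139.6 CPM in control culture and 83.4, 45.9 and 128 CPM in fresh cells. Replicate 2 was the lowest and replicate 3 the highest in every group, and its log2 fold change of 1.30 ± 0.144 over fresh (adjusted p = 5.39e-10) was not called without the replicate block (adjusted p = 0.247).

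Red cell genes were called at shares below and above the 8.27% of all genes tested: 0% of globin, 5.26% of membrane and skeleton, 9.09% of iron handling, 9.52% of heme synthesis and 23.1% of erythroid transcription factor genes. Of 8 tested globin genes 0 were called in edgeR's test (median log2 fold change -0.08), with 1 higher and 4 lower at an unadjusted p below 0.05 and 0 called by DESeq2 or limma voom. Of 77 tested cytosolic ribosomal protein genes 0 were called as well (median -0.06), with 0 higher and 3 lower at an unadjusted p below 0.05 and 0 called by DESeq2 or limma voom. Their log2 fold changes were below 0 in 68 genes and above 0 in 9. The alpha globin gene hba1 lay at 216149, 233242 and 196769 CPM in EPO culture, 248639, 261565 and 219469 CPM in control culture and 234816, 226376 and 234842 CPM in fresh cells (log2 fold change of EPO over fresh -0.11 ± 0.0399, adjusted p = 0.0895, and -0.17 with an adjusted p of 0.00246 without EPO replicate 2). Against control culture hba1 was lower, by a log2 fold change of -0.17 ± 0.0399 (adjusted p = 0.0209), a call lost without the replicate block (adjusted p = 0.755), EPO replicate 1 (0.19), EPO replicate 3 (0.127) or control replicate 2 (0.138). The gene alas2, whose enzyme opens the red cell pathway to heme, lay at 3586, 3968 and 4093 CPM in EPO culture, 3569, 4249 and 4244 CPM in control culture and 3495, 3911 and 4369 CPM in fresh cells. Its groups overlapped fully, and the log2 fold change was -0.01 ± 0.0529 (adjusted p = 0.937). The anion exchanger gene slc4a1, the main membrane protein of red cells, lay at 288, 313 and 324 CPM in EPO culture and 278, 447 and 322 CPM in fresh cells (log2 fold change -0.16 ± 0.0967, adjusted p = 0.339). The transferrin receptor gene tfrc, by which red cells take up iron, was low and overlapped between groups, at 3.14, 5.34 and 8.36 CPM in EPO culture and 10.3, 2.6 and 2.34 CPM in fresh cells.

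Of 21 tested heme synthesis genes 2 rose (median log2 fold change 0.01), urod by 0.82 ± 0.236 (edgeR adjusted p = 0.019) and the mitochondrial transporter gene abcb10 by 0.50 ± 0.164 (adjusted p = 0.0443). Neither call held without the replicate block (adjusted p = 0.104 for urod and 0.168 for abcb10), nor in every fit without 1 library (highest adjusted p = 0.139 without EPO replicate 2 for urod and 0.214 without EPO replicate 1 for abcb10). Of 19 tested membrane and skeleton genes 1 rose, the glucose transporter gene slc2a1, which lay at 28, 26.9 and 27.9 CPM in EPO culture, 20.1, 13 and 15.9 CPM in control culture and 10.3, 6.5 and 14 CPM in fresh cells (log2 fold change 1.45 ± 0.311, adjusted p = 8.81e-04). Of 13 tested erythroid transcription factors, of 21 in the table, 2 rose, tal1 and zfpm1, and 1 fell, gfi1b. The gene zfpm1 lay at 8.44, 18.9 and 11.1 CPM in EPO culture and 6.64, 4.77 and 2.34 CPM in fresh cells (log2 fold change 1.49 ± 0.434, adjusted p = 0.0205). The call on zfpm1 held in 3 of 6 fits without 1 library. The master factor gata1 was not called, with 208, 150.2 and 156 CPM in EPO culture and 176, 148 and 110.5 CPM in fresh cells (log2 fold change 0.25 ± 0.127, adjusted p = 0.24). The factor tal1 lay at 325, 326 and 367 CPM in EPO culture, 318, 277 and 297 CPM in control culture and 253, 260.1 and 276 CPM in fresh cells, a small difference with no overlap (log2 fold change 0.37 ± 0.098, adjusted p = 0.0102). The repressor gfi1b lay at 34.5, 54.3 and 44.7 CPM in EPO culture, 72.4, 77.8 and 56.5 CPM in control culture and 67.9, 57.6 and 74.8 CPM in fresh cells (log2 fold change -0.59 ± 0.181, adjusted p = 0.0281). The calls on tal1 and gfi1b were lost without the replicate block (adjusted p = 0.146 and 0.125). Without 1 library the adjusted p of tal1 was 0.056, 0.0598 and 0.0531 (EPO replicates 1 and 2 and fresh replicate 3), and that of gfi1b was 0.143, 0.106, 0.203 and 0.156 (EPO replicates 1 and 3 and fresh replicates 1 and 3).

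Lists of basic cell functions ranged from 2.04% called (ribosome biogenesis) to 22.2% (glycolysis and hypoxia), beside 8.27% of all genes tested. Of 49 tested ribosome biogenesis genes 1 rose, of 46 translation factors 4 rose, of 72 respiratory chain subunits 2 rose and of 17 cholesterol synthesis genes 1 rose. In glycolysis and hypoxia 4 of 27 tested genes rose and 2 fell. Beside adm and slc2a1, the genes that rose were hif1a, of a transcription factor that answers low oxygen, and the glycolytic enzyme gene pgam1. The gene hif1a lay at 116, 89.7 and 96 CPM in EPO culture, 72.4, 72.8 and 80.8 CPM in control culture and 80.5, 53.3 and 59.6 CPM in fresh cells (log2 fold change 0.65 ± 0.152, edgeR adjusted p = 0.0024). The gene pgam1 was higher by 1.74 ± 0.367 (adjusted p = 6.95e-04). Of 27 tested genes of oxidative stress and the factor NRF2 3 rose and 2 fell, and of 11 tested cell cycle genes 2 rose, led by pcna, the sliding clamp of DNA replication and repair. It lay at 63.2, 55.5 and 49.2 CPM in EPO culture, 55.4, 35.9 and 24.7 CPM in control culture and 17, 13.4 and 22.2 CPM in fresh cells (log2 fold change 1.66 ± 0.234, adjusted p = 3.82e-07).

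**Figure D4:**
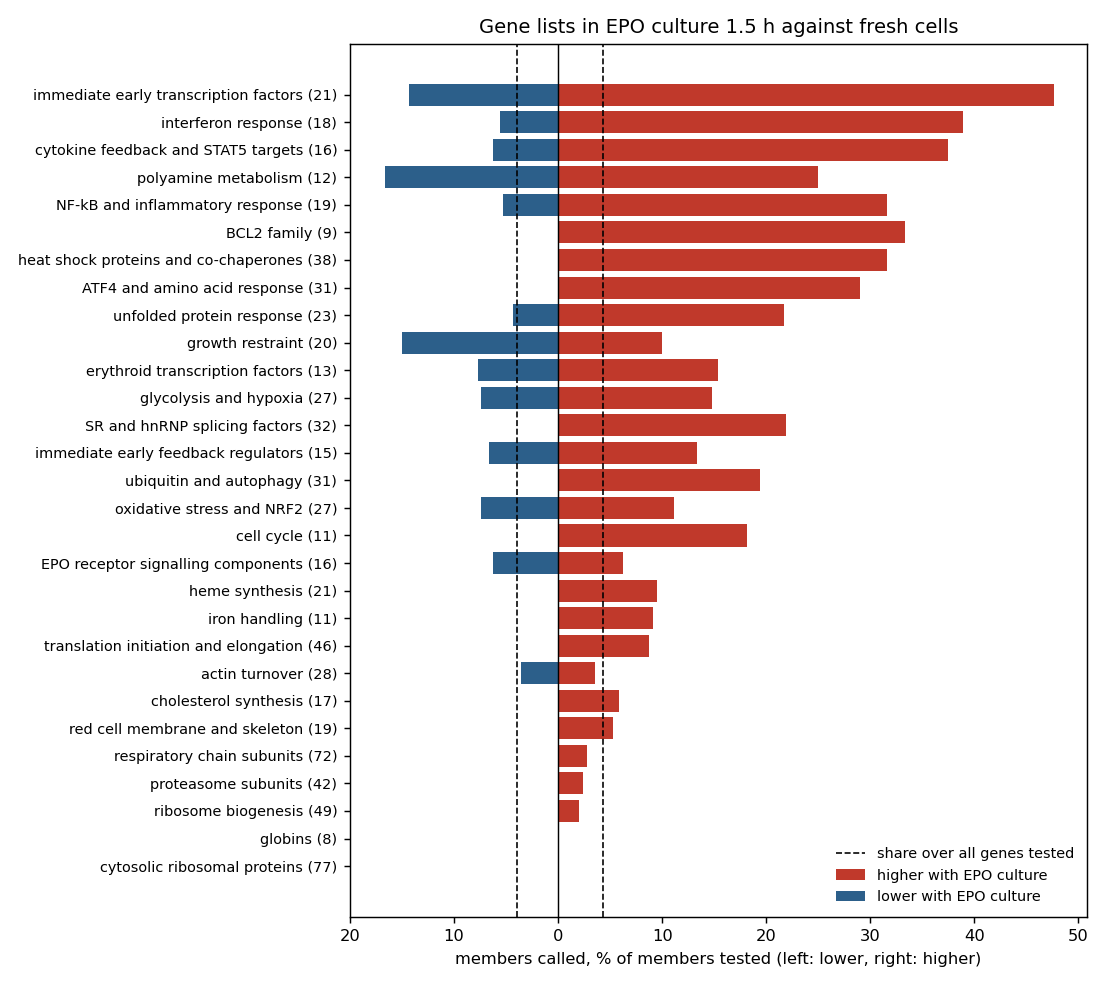
Each row is a gene list, with the number of its members tested in brackets. Bars to the right give the percentage of those members called higher in EPO culture at 1.5 h than in fresh cells, and bars to the left the percentage called lower. The dashed lines mark the shares over all genes tested, 4.34% higher and 3.93% lower. Immediate early transcription factors, with 10 of 21 higher, stand at the top, and globin and cytosolic ribosomal protein genes, with 0 called, at the bottom.

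Marker genes of other blood cells fell or were not called, and over all genes tested 3.93% were called lower. Of 16 tested granulocyte and monocyte markers, of 20 in the table, 4 fell in edgeR's test, and their summed level was 256 to 378 CPM in EPO culture, 260.2 to 379 CPM in control culture and 354 to 594 CPM in fresh cells. The marker mmp8 was at 0. The gene cybb, of the phagocyte oxidase, lay at 5.55, 1.96 and 1.64 CPM in EPO culture, 9.16, 3.74 and 3.18 CPM in control culture and 23.6, 18.6 and 12.9 CPM in fresh cells (log2 fold change -2.70 ± 0.493, adjusted p = 8.18e-05). Myeloperoxidase, mpo, lay at 18.6, 3.56 and 8.36 CPM in EPO culture, 26.2, 7.98 and 13.5 CPM in control culture and 52.4, 13 and 21 CPM in fresh cells, with replicate 1 highest in every group (log2 fold change -1.51 ± 0.313, adjusted p = 5.50e-04, and 0.36 without the replicate block). The leukotriene gene alox5ap lay at 90.4, 89.3 and 96.8 CPM in EPO culture, 109, 118 and 120.1 CPM in control culture and 148, 118 and 149.7 CPM in fresh cells (log2 fold change -0.58 ± 0.127, adjusted p = 0.00126). In bulk samples like these, fewer cells of a type and less RNA per cell cannot be told apart. Whether frog red cells also express these genes was not tested.

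Of 8 tested thrombocyte markers, of 15 in the table, 3 fell in edgeR's test, beside 3.93% of all genes tested. Their summed level was 435 to 467 CPM in EPO culture, 383 to 482 CPM in control culture and 385 to 499.8 CPM in fresh cells, summed over the listed markers. The sum is mostly the tubulin gene tubb1, which lay at 408, 398 and 404 CPM in EPO culture, 409.6, 356 and 352 CPM in control culture and 404, 307 and 349.6 CPM in fresh cells and was not called (log2 fold change 0.20 ± 0.0893, adjusted p = 0.181). The integrin gene itgb3 lay at 6.75, 1.78 and 4.92 CPM in EPO culture, 5.24, 3.24 and 6.76 CPM in control culture and 14.8, 17.3 and 31 CPM in fresh cells (log2 fold change -2.32 ± 0.478, adjusted p = 4.97e-04). Another integrin gene of the list, itga2b.1, lay at 22.9, 17.4 and 25.4 CPM in EPO culture and 17.7, 14.3 and 33.9 CPM in fresh cells. It was not called (log2 fold change 0.03 ± 0.278, adjusted p = 0.975). The median log2 fold change of the 8 tested markers was -1.25. The clotting factor gene f13a1 lay at 4.82, 1.78 and 2.46 CPM in EPO culture and 7.38, 6.5 and 23.4 CPM in fresh cells (log2 fold change -2.11 ± 0.607, adjusted p = 0.0186). Its adjusted p without EPO replicate 1, EPO replicate 3, fresh replicate 2 or fresh replicate 3 was 0.0653, 0.168, 0.065 and 0.274. Of 3 tested T and NK cell markers, of 15 in the table, 2 fell. The sum was 14.5 to 18.2 CPM in EPO culture, 17.9 to 31.4 CPM in control culture and 35.4 to 41.5 CPM in fresh cells. In EPO culture and fresh cells cd8b and il2rb were at 0. Both calls, on prf1 and itk, did not hold in most fits without 1 library (adjusted p up to 0.2 without EPO replicate 1 for prf1 and 0.224 without fresh replicate 1 for itk) and were lost without the replicate block (adjusted p = 0.0758 and 0.0529). Of 10 listed B cell markers 1 was tested and not called, and cd79b, pax5 and pou2af1 were at 0.

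The actin-binding peptide gene tmsb4x, thymosin beta 4, fell in the same direction as these markers. It lay at 139, 71.2 and 88.5 CPM in EPO culture, 181, 88.8 and 111 CPM in control culture and 309, 171 and 257 CPM in fresh cells. Replicate 1 was the highest in every group, and both cultures had lower means than fresh cells, with log2 fold changes of -1.32 ± 0.123 with EPO (edgeR adjusted p = 3.22e-12, and 0.0512 without the replicate block) and -0.97 ± 0.124 in control culture (adjusted p = 2.71e-07). Of 28 tested actin turnover genes edgeR called tmsb4x lower and lima1 higher (7.14%, beside 8.27% of all genes tested). DESeq2 called 3 lower and limma voom 4 lower, and 10 were lower at an unadjusted edgeR p below 0.05. The list's median log2 fold change was -0.35. The part of changing cell shares in the rises and falls given above was not tested.

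**Figure D5:**
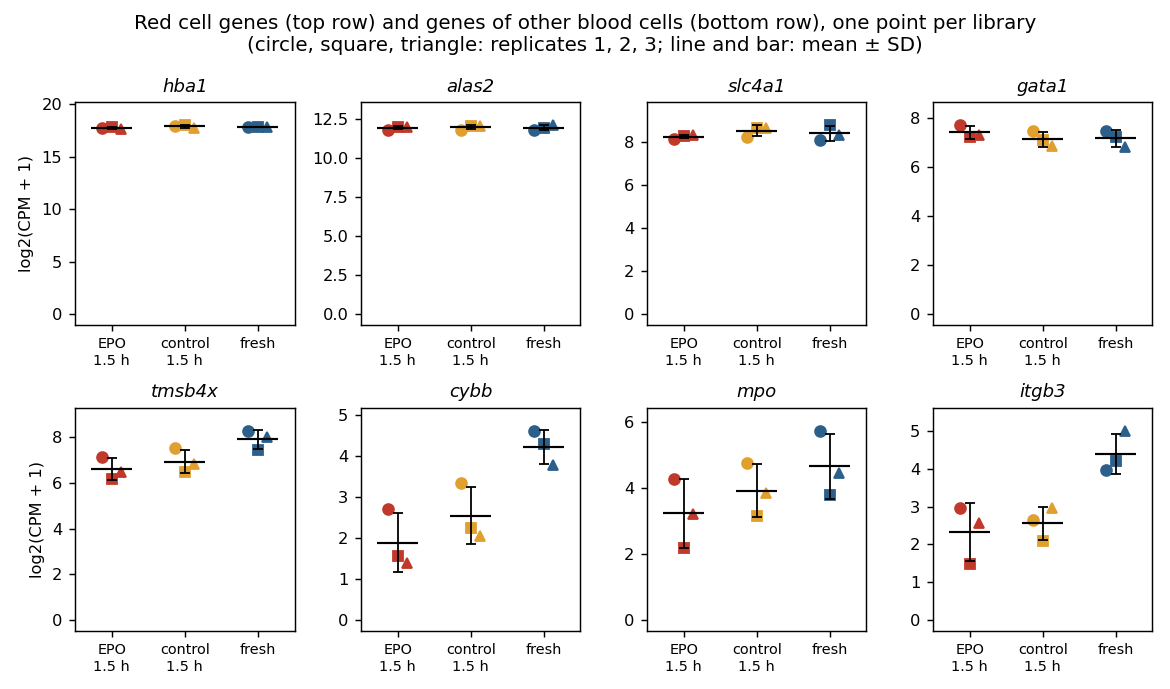
Each panel shows 1 gene, with log2(CPM + 1) on the y axis and the EPO 1.5 h, control 1.5 h and fresh groups on the x axis. Points are libraries, shaped by replicate number, and the line and bar give the mean and SD of 3 libraries. In the upper row, hba1, alas2, slc4a1 and gata1 overlap between groups. In the lower row, the EPO points of tmsb4x, cybb and itgb3 lie below all fresh points.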

How the data were processed

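RNA of total peripheral blood cells was read by 3' RNA-seq. The authors deposited a table of raw counts, all whole numbers, with a row for each of 26531 genes. Tools listed in the submitters' processing notes are Salmon, R 4.3.2, fastp 0.21.0 and BWA 0.7.17-r1188. Build, annotation, strand handling and any rounding of Salmon estimates: not given in the sources used here. Symbols come from the table, and 26530 matched RefSeq (UCB_Xtro_10.0).

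Counts were fitted with edgeR 4.0.16 in R 4.3.3: filterByExpr on the 5 groups (8939 genes kept), TMM scaling, robust quasi-likelihood dispersions, and a model of 5 group means with the replicate number as a block over all 15 libraries (8 residual degrees of freedom; common coefficient of biological variation 0.241). Tests are two-sided, p-values were Benjamini-Hochberg adjusted over all genes within each of 3 contrasts, and the threshold was 0.05. SEs were taken as the absolute log2 fold change divided by the square root of F. Depths and 3-count floors stand in the report; intervals (95%) and floors cover counting error only, since amplified reads with no molecular identifiers can come from 1 molecule. The script was tested on simulated data.

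The labels number the replicates without saying what a number shares, so the evidence for pairing is in the counts. Over 1417 genes, the 30 same-numbered pairs of libraries correlated at 0.279 to 0.626 in their deviations from group means and the 60 other pairs at -0.391 to 0.0489. Deviations within a group cancel out, so high values of same-numbered pairs push the other pairs down, and these ranges are not independent. No library was a repeat of another of its group: chi-square over its degrees of freedom was 4.61 to 12.6.

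The genes named are the 15 largest rises and 15 largest falls (readable symbol, called, at least 10 CPM in the higher group, no overlap), up to 4 called members per list by p, 16 pathway genes fixed by name, the 10 smallest p of EPO against control among genes called in both, and up to 10 genes called in both whose control change has the opposite sign. Further list members are named with the lists, and genes under the other observations were chosen after their values were seen. The comparison, the lists and the rule were chosen with earlier results of these data known. Alternatives were no block, DESeq2 size factors, the Wald test of DESeq2 1.42.0, voom in limma 3.58.1, scaling without globin genes, a fit of the 2 groups alone, no filter, a mean of 10 CPM, a 2-fold minimum, thinning to the smallest library, and leaving out each library.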

Additional observations from a re-analysis of the deposited data

Results flagged for a closer look

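In 15 genes EPO culture was called against both fresh cells and control culture, and the fitted control change over fresh had the opposite sign. In gfpt1 and gtf2h1 the mean CPM did not share that sign. It was 4.34 in control and 4.08 in fresh cells for gfpt1, and 5.88 and 5.70 for gtf2h1. Both calls were part of the rule that picked these genes, so the passing test of EPO against control adds no support. The control changes over fresh were small, with edgeR adjusted p-values of 0.421 for cdknx to 0.994 for gtf2h1. With log2 fold changes of EPO over control and their SE, cdknx was at -1.90 ± 0.181 (edgeR adjusted p = 3.60e-11), pmm2, an enzyme of mannose activation, at -1.10 ± 0.159 (edgeR adjusted p = 2.93e-06), and sesn1 at -2.50 ± 0.355 (edgeR adjusted p = 9.70e-06). The kinase gene hipk1 was at 0.73 ± 0.123 (edgeR adjusted p = 5.90e-05), the methionine sulfoxide reductase gene msrb2 at 0.99 ± 0.17 (edgeR adjusted p = 7.99e-05), and nars1 at 1.61 ± 0.309 (edgeR adjusted p = 6.18e-04). The prostaglandin receptor gene ptger4 was at 1.62 ± 0.367 (edgeR adjusted p = 0.00628), the translation factor gene eif4g2 at 0.70 ± 0.166 (edgeR adjusted p = 0.0111), the sodium pump subunit gene atp1b1 at 1.45 ± 0.355 (edgeR adjusted p = 0.0162), and the endoplasmic reticulum chaperone gene hsp90b1 at 1.21 ± 0.311 (edgeR adjusted p = 0.024). The receptor gene epor was at -1.13 ± 0.248 (edgeR adjusted p = 0.0435) and the repressor gene gfi1b at -0.65 ± 0.174 (edgeR adjusted p = 0.0372). Outside the naming rule and chosen after their values were seen, the red cell enzyme gene bpgm was at -0.46 ± 0.12 (edgeR adjusted p = 0.0265), the hexosamine pathway gene gfpt1 at 1.74 ± 0.477 (edgeR adjusted p = 0.0429) and the general transcription factor gene gtf2h1 at 1.40 ± 0.393 (edgeR adjusted p = 0.0498).

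The gene hipk1 lay at 195, 160.2 and 184 CPM in EPO culture, 118, 90.6 and 117 CPM in control culture and 118, 112 and 129 CPM in fresh cells, and msrb2 at 84.9, 69.2 and 94.2 CPM in EPO culture, 41.9, 37.4 and 44.6 CPM in control culture and 35.4, 43.3 and 54.4 CPM in fresh cells. In both, all EPO libraries lay above all others, and control and fresh values overlapped. The differences in sesn1, hipk1, msrb2 and nars1 passed without the block and in every fit without 1 library. The calls of these genes against fresh also passed in those fits. The differences in cdknx and pmm2 between the cultures did not pass without the block (adjusted p = 0.137 for cdknx and 0.0575 for pmm2), and neither did cdknx against fresh (adjusted p = 0.0721). Over fresh, pmm2 had a log2 fold change of -1.04 ± 0.164, and -0.69 without fresh replicate 3.

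The other 9 genes passed neither comparison without the block, with adjusted p-values against control of 0.0575 for atp1b1 to 0.473 for gfpt1 and against fresh of 0.0534 for gtf2h1 to 0.171 for gfpt1. Their calls were also lost in 3 or more of 6 fits without 1 library in each comparison; epor and gfi1b against fresh, and epor against control, are given in the report. For EPO against control, leaving out these libraries ended the call: EPO replicate 2 and control replicates 2 and 3 for ptger4 (highest adjusted p = 0.306), EPO replicates 1 and 2 and control replicates 2 and 3 for eif4g2 (0.133), all 3 EPO replicates and control replicate 2 for atp1b1 (0.219), every library but EPO replicate 2 for hsp90b1 (0.302), every library but control replicate 1 for bpgm (0.28), every library but control replicate 3 for gfi1b (0.417), and any library for gfpt1 (0.237) and gtf2h1 (0.32). For EPO against fresh these were EPO replicates 1 and 2 and fresh replicates 1 and 2 for ptger4 (0.403), EPO replicates 1 and 2 and fresh replicates 2 and 3 for eif4g2 (0.143), any library for atp1b1 (0.179), EPO replicates 1 and 3 and fresh replicates 1 and 3 for hsp90b1 (0.205), EPO replicates 2 and 3 and fresh replicate 2 for bpgm (0.186), every library but fresh replicate 2 for gfpt1 (0.24), and EPO replicates 2 and 3 and fresh replicates 1 and 2 for gtf2h1 (0.168). Over fresh, ptger4 was at 1.2 ± 0.374 on the log2 scale, and 0.73 without EPO replicate 2, and that of gfpt1 was 1.63 ± 0.507, and 2.63 without fresh replicate 2.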

How the results depend on the processing

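EPO against fresh called 388 genes higher and 351 lower. It called 371 and 373 with DESeq2 size factors, 370 and 376 when scaled without globin genes, 369 and 447 with the DESeq2 Wald test, 279 and 409 with limma voom, 413 and 239 with no filter, 274 and 338 at a mean of 10 CPM, and 265 and 305 when every library was thinned to the smallest. The counts were 242 and 255 without the replicate block, 208 and 266 with only the 2 groups compared, and 61 and 18 for a minimum change of 2-fold. Without 1 library the higher genes numbered 250 (without EPO replicate 2) to 339 (without fresh replicate 2) and the lower genes 187 (without EPO replicate 3) to 317 (without fresh replicate 3). The cause of these moves was not tested, except that thinning and leaving out a library use fewer counts.

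Control against fresh (63 and 54) called 16 higher and 13 lower without the replicate block, 36 higher with limma voom, 10 and 1 at the 2-fold minimum, and, without 1 library, 35 to 75 higher and 25 to 52 lower, both lowest without control replicate 1. EPO against control (96 and 43) called 34 and 5 without the replicate block, 156 and 107 with only the 2 groups, 81 lower with limma voom, 65 lower at a mean of 10 CPM, 7 and 4 at the 2-fold minimum, and, without 1 library, 58 to 77 higher and 15 to 30 lower. Its 139 calls numbered 73 without EPO replicate 3, 80 without EPO replicate 1, and 92, 90 and 85 without control replicates 1, 2 and 3.

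Of 103 named genes called in EPO against fresh, 67 were called in all 6 fits without 1 library and 28 in all 10 other alternatives. A gene that an alternative's filter left untested counts here as not called. The 2-fold minimum, which tests a different question, kept 35 of the 103, and a mean of 10 CPM kept 86. Over all alternatives, 2073 values of named genes stayed on their side of the threshold, 428 no longer passed it and 7 changed sign; of the lists' counts and medians 1078 stayed and 314 moved. The changes of sign were in 3 uncalled genes, tfrc, slc4a1 and alas2. The log2 fold change of tfrc was -0.0275 when thinned and ran from -0.112 to 1.10 without 1 library, that of slc4a1 from -0.26 to 0.0109, and that of alas2 from -0.0472 to 0.0317, and was 0.0781 with no filter. Depth limits low genes, since 3 counts are up to 2.21 CPM in a fresh library.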

Other observations

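Genes named here were chosen after their values were seen. The leukocyte gene lcp2, of an adaptor of immune receptor signalling, fell. It lay at 26.3, 32.9 and 27.2 CPM in EPO culture, 42.3, 35.7 and 45.4 CPM in control culture and 84.2, 70.7 and 77.8 CPM in fresh cells (log2 fold change of EPO over fresh -1.42 ± 0.191, edgeR adjusted p = 1.40e-07). All EPO libraries lay below all control libraries, and those below all fresh ones. The genes cry1 and nr1d1 of the daily clock were higher in EPO culture than in fresh cells. The repressor gene cry1 lay at 41.5, 45.9 and 46.7 CPM in EPO culture, 41.4, 44.4 and 39.4 CPM in control culture and 18.5, 18.2 and 26.9 CPM in fresh cells (log2 fold change of EPO over fresh 1.08 ± 0.214, edgeR adjusted p = 2.68e-04), with a like rise in control culture (0.99 ± 0.22, adjusted p = 0.00583). The repressor gene nr1d1 lay at 58.1, 80.8 and 66.5 CPM in EPO culture, 66.3, 40.4 and 79.6 CPM in control culture and 37.7, 21.7 and 41.5 CPM in fresh cells (log2 fold change of EPO over fresh 1.09 ± 0.241, edgeR adjusted p = 0.00328).

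The small GTPase gene rasl11b lay at 179, 260.0 and 180.1 CPM in EPO culture, 150.1, 163 and 142 CPM in control culture and 30.3, 65.9 and 56.1 CPM in fresh cells (log2 fold change of EPO over fresh 2.02 ± 0.158, edgeR adjusted p = 7.84e-15). The Ral activator gene ralgds lay at 74.8, 88.8 and 78.8 CPM in EPO culture, 39.7, 21.2 and 22.3 CPM in control culture and 20.7, 6.07 and 9.94 CPM in fresh cells (log2 fold change of EPO over fresh 2.86 ± 0.263, edgeR adjusted p = 2.73e-12), and the Kruppel-like factor gene klf17 at 515, 651 and 673 CPM in EPO culture, 383, 374 and 479 CPM in control culture and 256, 262 and 349.6 CPM in fresh cells (log2 fold change of EPO over fresh 1.09 ± 0.0919, edgeR adjusted p = 1.04e-13). In all of rasl11b, ralgds and klf17 the EPO libraries lay above every fresh library. Some inflammatory genes were at or near 0 in fresh cells. The decoy gene il18bp lay at 7.24, 11.2 and 4.42 CPM in EPO culture and 5.24, 3.99 and 1.19 CPM in control culture (edgeR adjusted p = 0.0103 for control against fresh and 0.426 for EPO against control). It had 120 counts in EPO culture and 0 in fresh cells, 13.5-fold higher against a floor of 3 counts over the fresh group. The lower end of the 95% counting interval of the ratio was 10.8. The interferon-induced GTPase gene gbp6 lay at 13.5, 4.27 and 1.8 CPM in EPO culture and 6.98, 1.25 and 0 CPM in control culture (adjusted p = 0.082 for control against fresh and 0.413 for EPO against control). It had 91 counts in EPO culture and 0 in fresh cells, 10.3-fold higher against the same floor, with a lower interval end of 8.18. EPO against fresh had an edgeR adjusted p of 5.13e-04, and of 0.0766 without the replicate block. The itaconate enzyme gene acod1 lay at 20.3, 4.63 and 4.92 CPM in EPO culture and 4.36, 1.25 and 0 CPM in control culture (adjusted p = 0.354 for control against fresh). EPO against control was called for acod1 (adjusted p = 0.0261), but not without the block (0.468) or without any 1 library other than EPO replicate 2 (highest adjusted p = 0.329). The gene had 140 counts in EPO culture and 1 in fresh cells, a ratio of 47.4 after allowing for depth (95% counting interval 8.37 to 1885).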
